A study of Mus musculus with 20 samples.

Results

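The genes described here encode the enzymes of cholesterol and fatty acid synthesis, the proteins that switch these enzymes on and off, and a carrier of cholesterol between membranes. They are 31 genes, chosen by symbol, of the 55471 genes in a table of read counts from whole mouse kidneys, and each symbol matched 1 row. Of the 31, 7 act from acetyl-CoA to farnesyl pyrophosphate (the mevalonate pathway), 12 act in squalene synthesis and the later sterol steps, 6 make, lengthen or desaturate fatty acids, and 6 are the SREBP regulators with the sterol carrier Stard4. All 31 passed the filter on low counts in both experiments, and this filter looked at the level and not at a difference between groups.

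The kidneys came from female mice, 2 months old per the labels, in 2 experiments with 1 library per mouse. The first held 4 actin-rtTA+ and 3 i-TERTci mice of mixed background. The i-TERTci mice carried, each on 1 allele, actin-rtTA+ and a tetOp-TERTci+ transgene, through which doxycycline turns on catalytically inactive telomerase reverse transcriptase throughout the body. Both groups drank doxycycline for 15 days and were then taken off it for 8 days, and kidneys were taken at that time (reversal day 8, R8). The second experiment held mice on the Balb/c background at 18 days after a single intravenous injection: 4 TERT WT/WT mice given saline, 3 TERT WT/WT mice given Adriamycin (ADR, doxorubicin) at 12 mg/kg, 3 TERT KO/KO mice given saline and 3 TERT KO/KO mice given ADR. TERT KO/KO mice carry a knockout of telomerase reverse transcriptase on both alleles and were backcrossed to Balb/c, and TERT WT/WT littermates were their controls. ADR is used as a model of podocyte injury, but it reaches every organ.

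Cholesterol and fatty acids are both built from acetyl-CoA. Cells match this synthesis to their sterol content through the SREBP transcription factors, which are made as membrane proteins of the endoplasmic reticulum. When sterol is scarce, Scap carries them to the Golgi, where they are cut and released to the nucleus. When sterol is plentiful, Insig1 and Insig2 hold Scap and its cargo back. Srebf2 is best known for sterol enzymes and Srebf1 for fatty acid enzymes, and Insig1 and Stard4 are themselves classic SREBP targets. In the kidney, proximal tubule cells take up filtered protein and burn fatty acids, and they make up much of the cortex.

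Libraries held 39323498 to 48399322 counts, with a median of 45705605.5. The library labelled as replicate 2 of TERT KO/KO ADR differed from all others, since 8 hepatocyte markers summed to 756359 CPM (counts scaled to a common library size) in it against 16.7 to 106 in the other 12 libraries of the ADR experiment, and 9 tubule and podocyte markers summed to 109 CPM against 6558 to 14427, all 13 libraries being scaled together. In it 28.5% of all 19023 tested genes lay above and 36.9% below every other library of that experiment, as did 26 and 2 of the 31 genes. It was left out of all means and fits unless stated, which leaves 2 TERT KO/KO ADR libraries. In the other 19, the kidney markers Umod, Slc12a1, Lrp2 and Nphs1 were all detected. Tert, the gene targeted by the knockout, ranged from 51 to 132 counts in saline libraries of the TERT KO/KO genotype and from 122 to 187 in those of TERT WT/WT, so the ranges overlapped, and the deleted part is not given in the sources used here. Tert had 230 to 1086 counts in i-TERTci libraries against 87 to 164 in actin-rtTA+ libraries.

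SREBPs bind sterol regulatory elements in the promoters of their targets, usually beside a CCAAT box bound by the factor NF-Y. The RefSeq promoter table (GRCm38.p6, 250 bases before to 50 after each gene's start) held windows for 25 of the 31 genes. Windows for Fdps, Fdft1, Sqle, Scd1, Scd2 and Stard4 were not analysed here. The motifs searched on both strands were TCACNCCAC, its core CACNCCA, which lies within it, and CCAAT. The letters TCACNCCAC were found for 1 of the 25 genes, Hmgcs1, and for 1.44% of all 27025 genes with a window (1.24% of all 32851 windows). The core CACNCCA was found for 6 genes, namely Acat2, Hmgcs1, Insig1, Insig2, Msmo1 and Srebf2, and for 20.6% of all 27025 genes with a window. CCAAT was found for 21 of the 25 genes and for 41.1% of all genes, and at least 2 copies were found for 12 of the 25 and for 13.3% of all genes. These are descriptions of letters in 1 window per start, and motifs outside it were not searched.

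Stretches of 80 bases before the start are shown for 6 genes whose window has no annotated exon there, 2 with the core motif and 4 with CCAAT boxes, 5′ to 3′ on the gene's strand. Capitals mark CACNCCA or CCAAT on either strand, so ATTGG is a CCAAT box read on the other strand. The capitals in Fasn are 2 overlapping boxes. Srebf2 is at chr15:82147063-82147142 on the plus strand, Hmgcs1 at chr13:119690170-119690249 on the plus strand, Mvd at chr8:122443423-122443502 on the minus strand, Lss at chr10:76531508-76531587 on the plus strand, Ebp at chrX:8193513-8193592 on the minus strand and Fasn at chr11:120824548-120824627 on the minus strand.
Srebf2: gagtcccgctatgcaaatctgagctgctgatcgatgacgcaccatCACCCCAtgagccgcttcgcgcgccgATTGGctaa
Hmgcs1: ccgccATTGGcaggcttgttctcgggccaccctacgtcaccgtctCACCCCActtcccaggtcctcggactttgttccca
Mvd: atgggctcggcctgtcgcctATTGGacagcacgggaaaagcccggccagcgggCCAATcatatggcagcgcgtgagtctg
Lss: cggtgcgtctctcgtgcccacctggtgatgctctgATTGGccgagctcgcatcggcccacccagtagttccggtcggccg
Ebp: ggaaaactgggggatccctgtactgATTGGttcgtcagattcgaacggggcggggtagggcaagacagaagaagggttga
Fasn: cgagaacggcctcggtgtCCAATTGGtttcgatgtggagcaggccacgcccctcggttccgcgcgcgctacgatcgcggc

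Levels of the 31 genes differed widely from each other in saline kidneys. Per kilobase of annotated exon, in TERT WT/WT saline kidneys (n = 4), Scd1, a desaturase that puts a double bond in saturated fatty acids, was highest with a mean of 238.5 CPM per kilobase (range 218 to 286). Hmgcs1, which condenses acetyl-CoA units ahead of mevalonate, had 60.1 (51.2 to 68.6) and Cyp51, which strips a methyl group from lanosterol, had 58.3 (52.5 to 63.1), so the ranges of these 2 neighbours overlapped. Srebf2 and Srebf1 had 18.6 (16.6 to 19.5) and 17.5 (15.9 to 20.8), again with overlapping ranges, and Scap had 15.9 (13.8 to 16.9). Insig1 and Insig2 were at 9.34 and 8.22. Sqle, the squalene epoxidase, had 4.01, Lss, the lanosterol synthase, had 2.54, and Acaca, the acetyl-CoA carboxylase, had 1.39. Fdps was lowest at 0.141 CPM per kilobase, with a median of 23 counts over all 20 libraries.

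Some of these genes overlap others in the annotation. Fdft1 overlaps the exons of Ctsb on the opposite strand over 774 bases, and Ctsb had a median of 41968 counts against 1832 for Fdft1. Fdps shares 1124 exonic bases with the protein-coding Gm43738 on the same strand, which had a median of 0 counts. Tm7sf2 shares 532 exonic bases with Vps51 on the same strand, Cyp51 shares 166 with Akap9 and Srebf1 shares 109 with Rai1. The strand setting of the counting is not given in the sources used here, and how reads matching 2 genes on the same strand were counted is not given either, so the values of Fdft1, Fdps and Tm7sf2 are uncertain. Acat2 has a near copy, Acat3, and Scd1 and Scd2 are similar to each other.

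Kidneys taken after ADR were first compared with saline kidneys in TERT WT/WT mice. The sterol and fatty acid genes were lower as a group: 20 of the 31 fell and none rose, against 12.0% of all 19023 tested genes that fell and 15.2% that rose (edgeR's quasi-likelihood test, Benjamini-Hochberg adjusted p under 0.05). Their median log2 fold change was -0.62, while the median over all tested genes was 0.01. In 22 of the 31, every ADR library was below every saline library, as in 16.2% of all tested genes. The genes that fell were 5 of 6 regulators and carriers, 8 of 12 squalene and sterol genes, 4 of 6 fatty acid genes and 3 of 7 mevalonate genes. Fewer cells of a type and less RNA per cell cannot be told apart in whole kidney. The ADR libraries were unequal: the fall was mildest in replicate 1, 7 genes fell in a fit without replicate 2 (2.12% of all genes) and 12 without replicate 3 (5.63% of all genes). Without replicate 1, 24 fell and 1 rose, beside 19.8% of all genes that fell and 21.3% that rose. When the set-aside library was put back, where it enters through the shared estimate of spread and the scaling, Hmgcs1 alone was called lower, beside 0.728% of all genes. Without any 1 of the 12 fitted libraries, 7 genes stayed called in each fit, namely Dhcr7, Hmgcs1, Hsd17b7, Msmo1, Mvd, Srebf2 and Stard4.

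**Figure D1:**
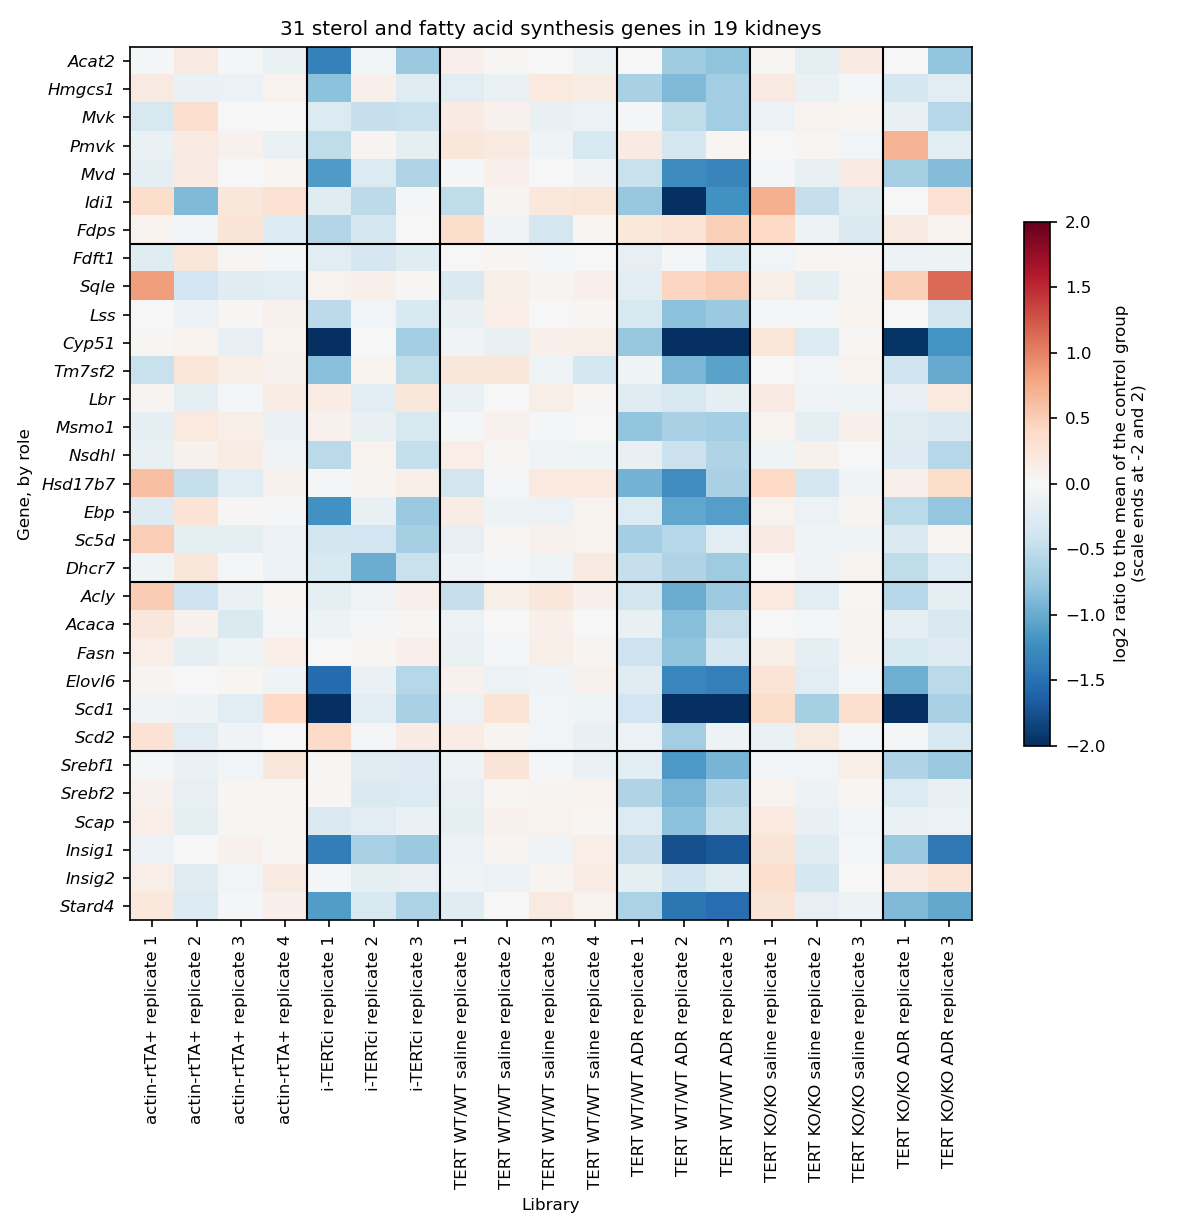
Log2 ratio of each gene (rows, ordered by role) to the mean of its own control group in 19 libraries (columns), with blue for lower and red for higher and the color scale ending at -2 and 2. TERT WT/WT ADR replicates 2 and 3 had the lowest medians over the 31 genes, -0.82 and -0.69, and i-TERTci replicate 2, at -0.15, was the palest of the 8 treated or induced columns.

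Among the regulators, Srebf2 (ENSMUSG00000022463.8, chr15:82147181-82205379), the sterol-directed SREBP, had 119, 136, 138 and 140.4 CPM after saline and 87.6, 70.9 and 87.9 CPM after ADR (replicates in order, CPM after TMM scaling here and throughout). Every ADR kidney was below every saline kidney, and Srebf2 fell by 38.5%, a log2 fold change of -0.70 ± 0.11 (SE, adjusted p = 0.00192). Srebf1 had 90.9, 117, 95.5 and 89.6 CPM after saline and 84.3, 44.2 and 51.0 CPM after ADR, a log2 fold change of -0.72 ± 0.19 (SE, adjusted p = 0.0172). Only replicates 2 and 3 were far below the saline range for Srebf1, with replicate 1 just under its lowest value. Scap, the escort of both SREBPs, had 103, 126, 124 and 122 CPM after saline and 97.6, 66.8 and 84.0 CPM after ADR and fell with a log2 fold change of -0.52 ± 0.14 (SE, adjusted p = 0.0176).

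Insig1 (ENSMUSG00000045294.11, chr5:28071363-28078662), the retention protein that SREBPs themselves induce, had 26.5, 30.0, 27.5 and 31.6 CPM after saline and 20.9, 8.41 and 8.93 CPM after ADR. It fell by 55.9%, a log2 fold change of -1.18 ± 0.29 (SE, adjusted p = 0.0127), and ADR replicates 2 and 3 had less than any other kidney of the ADR experiment. Its relative Insig2, which is less tied to SREBP, had 26.8, 26.3, 29.7 and 31.5 CPM after saline and 25.1, 21.6 and 24.02 CPM after ADR. All 3 ADR values were below the saline values, but Insig2 did not pass the test, with a log2 fold change of -0.28 ± 0.14 (SE, adjusted p = 0.155). Stard4 (ENSMUSG00000024378.9, chr18:33199355-33213862), which moves cholesterol between membranes, had 68.6, 81.5, 92.2 and 85.1 CPM after saline and 52.2, 29.8 and 28.3 CPM after ADR, and fell by 55.1%, a log2 fold change of -1.15 ± 0.20 (SE, adjusted p = 0.00296).

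In the mevalonate pathway Hmgcs1, Mvd and Idi1 fell and both kinases missed the threshold. Hmgcs1 (ENSMUSG00000093930.2, chr13:119690379-119708260) had 235, 251, 315 and 303 CPM after saline and 176, 148 and 169 CPM after ADR, a log2 fold change of -0.75 ± 0.14 (SE, adjusted p = 0.00377). Here all 3 ADR kidneys were alike, replicate 1 included. Mvd, which decarboxylates the mevalonate product to isopentenyl pyrophosphate, had 44.5, 48.6, 44.9 and 43.3 CPM after saline and 33.2, 18.8 and 18.1 CPM after ADR and fell with a log2 fold change of -0.96 ± 0.19 (SE, adjusted p = 0.00449). Idi1, which isomerizes that product, was a low gene at 4.24, 6.35, 7.06 and 7.21 CPM after saline and 3.58, 1.43 and 2.58 CPM after ADR, with a log2 fold change of -1.30 ± 0.35 (SE, adjusted p = 0.0172). Mvk, the mevalonate kinase, had 22.8, 21.6, 18.3 and 18.8 CPM after saline and 19.7, 14.3 and 12.5 CPM after ADR, and replicate 1 lay within the saline range. Its log2 fold change was -0.40 ± 0.16 (SE, adjusted p = 0.0834). The other 3 did not pass either: Acat2, which joins 2 acetyl-CoA units, had -0.46, Pmvk, the next kinase, had -0.04, and Fdps, which builds farnesyl pyrophosphate, had 0.35.

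Of the squalene and sterol genes, Msmo1 (ENSMUSG00000031604.10, chr8:64718139-64733792), a methylsterol oxidase, had the smallest p of all 31. It had 38.1, 41.6, 38.3 and 39.2 CPM after saline and 22.8, 25.0 and 24.6 CPM after ADR, and fell by 38.6%, a log2 fold change of -0.70 ± 0.09 (SE, adjusted p = 0.00104). The 3 ADR kidneys lay close together and far from the saline kidneys. Dhcr7, the reductase of the last step to cholesterol, had 26.6, 27.3, 26.4 and 31.6 CPM after saline and 20.3, 18.3 and 16.9 CPM after ADR, a log2 fold change of -0.60 ± 0.11 (SE, adjusted p = 0.00327). Hsd17b7, a ketosteroid reductase of the same demethylation, had 14.8, 18.6, 21.9 and 21.8 CPM after saline and 9.78, 8.00 and 12.1 CPM after ADR, a log2 fold change of -0.95 ± 0.20 (SE, adjusted p = 0.00689). Lss, the enzyme that closes the sterol rings, had 24.6, 30.0, 27.1 and 28.0 CPM after saline and 21.9, 15.5 and 16.3 CPM after ADR, a log2 fold change of -0.62 ± 0.14 (SE, adjusted p = 0.00793). For these 3 genes no ADR value reached a saline value.

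Cyp51 (ENSMUSG00000001467.5, chr5:4081145-4104746) had 244, 232, 275 and 278 CPM after saline and 152, 43.0 and 40.4 CPM after ADR, the lowest fitted log2 fold change of the 31 at -1.71 ± 0.41 (SE, adjusted p = 0.0121). It was lost as a call without replicate 2 but not without replicate 3. Nsdhl, Ebp and Sc5d, which carry out later demethylation, isomerase and desaturase steps, fell with log2 fold changes of -0.38, -0.76 and -0.48. The reductases Tm7sf2 and Lbr, with -0.65 ± 0.24 (SE, adjusted p = 0.0624) and -0.25 ± 0.12 (SE, adjusted p = 0.124), and Fdft1, the squalene synthase, with -0.17, did not pass.

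Sqle (ENSMUSG00000022351.14, chr15:59315077-59331192), the oxygen-requiring step between Fdft1 and Lss, was the only gene of the squalene and sterol list with a positive log2 fold change. Fdps of the mevalonate pathway was positive too, and neither passed. It had 18.1, 24.1, 23.0 and 23.7 CPM after saline and 18.9, 30.0 and 31.3 CPM after ADR, a log2 fold change of 0.26 ± 0.19 (SE, adjusted p = 0.322). Replicates 2 and 3, in which most other genes were lowest, were above all 4 saline kidneys for Sqle, while replicate 1 lay within their range. It was called higher by limma voom with sample quality weights and by edgeR without replicate 1, and was not called by edgeR on all libraries or by DESeq2.

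Fatty acid genes were also lower. Fasn, the fatty acid synthase, had 116, 123, 137 and 132 CPM after saline and 95.1, 72.2 and 99.8 CPM after ADR, a log2 fold change of -0.51 ± 0.13 (SE, adjusted p = 0.0137). Acly, which makes cytosolic acetyl-CoA from citrate, had 107, 161, 174 and 159 CPM after saline and 114, 74.4 and 89.0 CPM after ADR, a log2 fold change of -0.70 ± 0.19 (SE, adjusted p = 0.0198), and ADR replicate 1 was above saline replicate 1. Elovl6, which lengthens the product of Fasn, had 123, 106, 109.7 and 122 CPM after saline and 97.6, 46.5 and 44.8 CPM after ADR, a log2 fold change of -0.87 ± 0.25 (SE, adjusted p = 0.0222). For Elovl6 replicate 1 was near the saline kidneys and the other 2 were far below them. Acaca had 21.9, 23.9, 25.5 and 23.7 CPM after saline and 21.3, 13.1 and 17.0 CPM after ADR, a log2 fold change of -0.47 ± 0.14 (SE, adjusted p = 0.0266).

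The abundant desaturase Scd1 (ENSMUSG00000037071.3, chr19:44394455-44407879) had 1065, 1398, 1112 and 1092 CPM after saline and 891, 153 and 215 CPM after ADR. All ADR values lay below the saline values, yet replicate 1 lay far above the other 2 and Scd1 did not pass, with a log2 fold change of -1.47 ± 0.59 (SE, adjusted p = 0.0816). In a fit without replicate 1 its log2 fold change was -2.66 ± 0.47 (SE, edgeR adjusted p = 0.000933). Scd2, the desaturase of brain and other tissues, had -0.29 and did not pass.

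**Figure D2:**
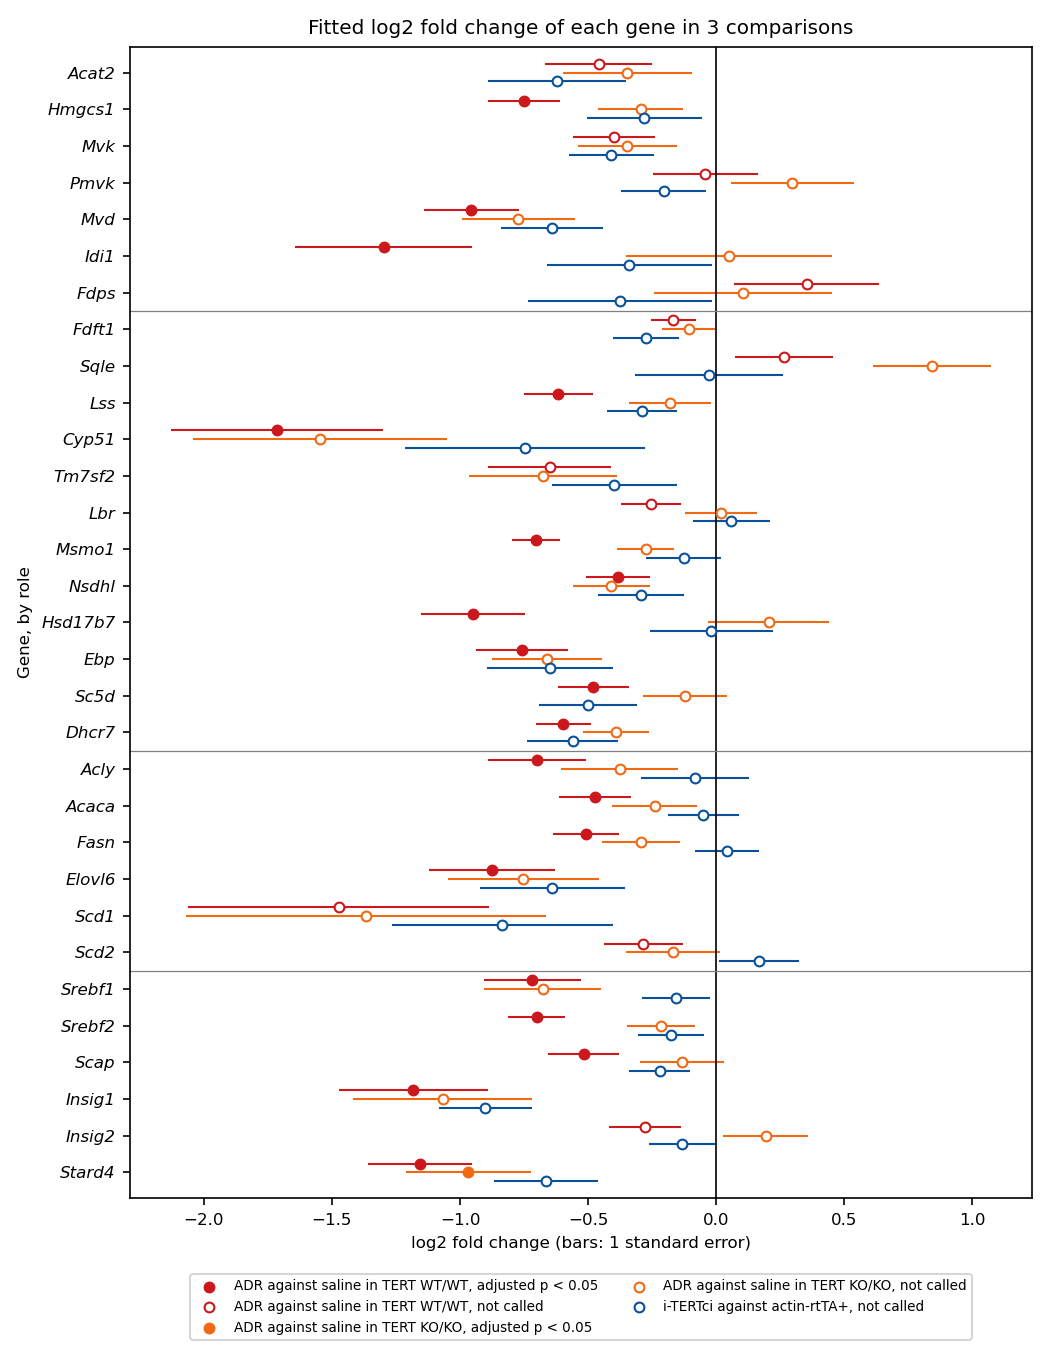
Fitted log2 fold change (x axis, bars of 1 standard error) of the 31 genes (y axis, ordered by role) in ADR against saline for TERT WT/WT and for TERT KO/KO mice and in i-TERTci against actin-rtTA+ mice, with filled points for an edgeR adjusted p under 0.05. Of the filled points, 20 are ADR in TERT WT/WT and 1, Stard4, is ADR in TERT KO/KO, and Sqle lies to the right of 0 in both ADR comparisons.

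ADR against saline in TERT KO/KO mice rested on 2 ADR and 3 saline libraries. Stard4 fell and none of the 31 rose, against 1.43% of all tested genes that fell and 3.83% that rose. Stard4 had 79.1, 58.9 and 61.3 CPM after saline and 35.5 and 32.4 CPM after ADR, a log2 fold change of -0.97 ± 0.24 (SE, adjusted p = 0.04). The call of Stard4 was lost in each fit without 1 of the TERT KO/KO libraries, ADR or saline, and without TERT WT/WT saline replicate 2, 3 or 4. Without TERT KO/KO ADR replicate 1, Sqle was called higher in its place. The median over the 31 genes was -0.29, and 24 of them had a negative log2 fold change. In 17 both ADR libraries were below all 3 saline libraries, against 20.8% of all tested genes. In the fit without TERT WT/WT ADR replicate 1, which is in neither group but in the shared estimate of spread, 10 of the 31 were called lower and 7.61% of all genes were. With the set-aside library in its group, none was called lower, beside 0.275% of all genes, and the log2 fold change of Stard4 turned to 0.24 (edgeR adjusted p = 0.796). DESeq2 called 6 lower (4.88% of its tested genes), namely Cyp51, Ebp, Insig1, Mvd, Srebf1 and Stard4, and 1 higher, Sqle. Of all 17521 genes tested by DESeq2, 1341 were called higher.

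Insig1 had 31.3, 22.1 and 25.7 CPM after saline and 15.6 and 9.59 CPM after ADR in TERT KO/KO mice, with a log2 fold change of -1.07 ± 0.35 (SE, adjusted p = 0.0904). Cyp51 had 293, 205 and 250.3 CPM after saline and 63.0 and 108 CPM after ADR, with -1.55 ± 0.49 (SE, adjusted p = 0.0871). Srebf1 had 74.5, 74.1 and 83.5 CPM after saline and 50.8 and 46.0 CPM after ADR, with -0.68 ± 0.23 (SE, adjusted p = 0.0982). None of these 3 passed, although their saline and ADR values did not overlap.

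Srebf2 had 108, 96.4 and 106 CPM after saline and 85.2 and 93.2 CPM after ADR in TERT KO/KO mice, a log2 fold change of -0.21 ± 0.13 (SE, adjusted p = 0.335). Hmgcs1 had 274, 220.2 and 235 CPM after saline and 190.2 and 206 CPM after ADR, with -0.29 ± 0.17 (SE, adjusted p = 0.292). Msmo1 had 29.0, 24.5 and 29.9 CPM after saline and 23.3 and 22.6 CPM after ADR, with -0.27 ± 0.11 (SE, adjusted p = 0.158). Every saline kidney of the TERT KO/KO genotype had less Srebf2 and Msmo1 than every one of TERT WT/WT, while the ranges of the ADR kidneys overlapped between genotypes. How many of all tested genes were separated by genotype in saline kidneys was not counted.

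Sqle had 13.8, 11.2 and 13.2 CPM after saline and 17.8 and 28.0 CPM after ADR in TERT KO/KO mice. Both ADR kidneys were above all 3 saline kidneys, and the log2 fold change of 0.84 ± 0.23 (SE, adjusted p = 0.0528) lay just outside the threshold. Sqle was the 1 gene of the 31 for which the ADR values lay wholly above the saline values in TERT KO/KO mice. Hsd17b7 and Idi1, which fell in TERT WT/WT mice, had 0.21 ± 0.24 (SE, adjusted p = 0.623) and 0.05 ± 0.40 (SE, adjusted p = 0.952) in TERT KO/KO mice.

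**Figure D3:**
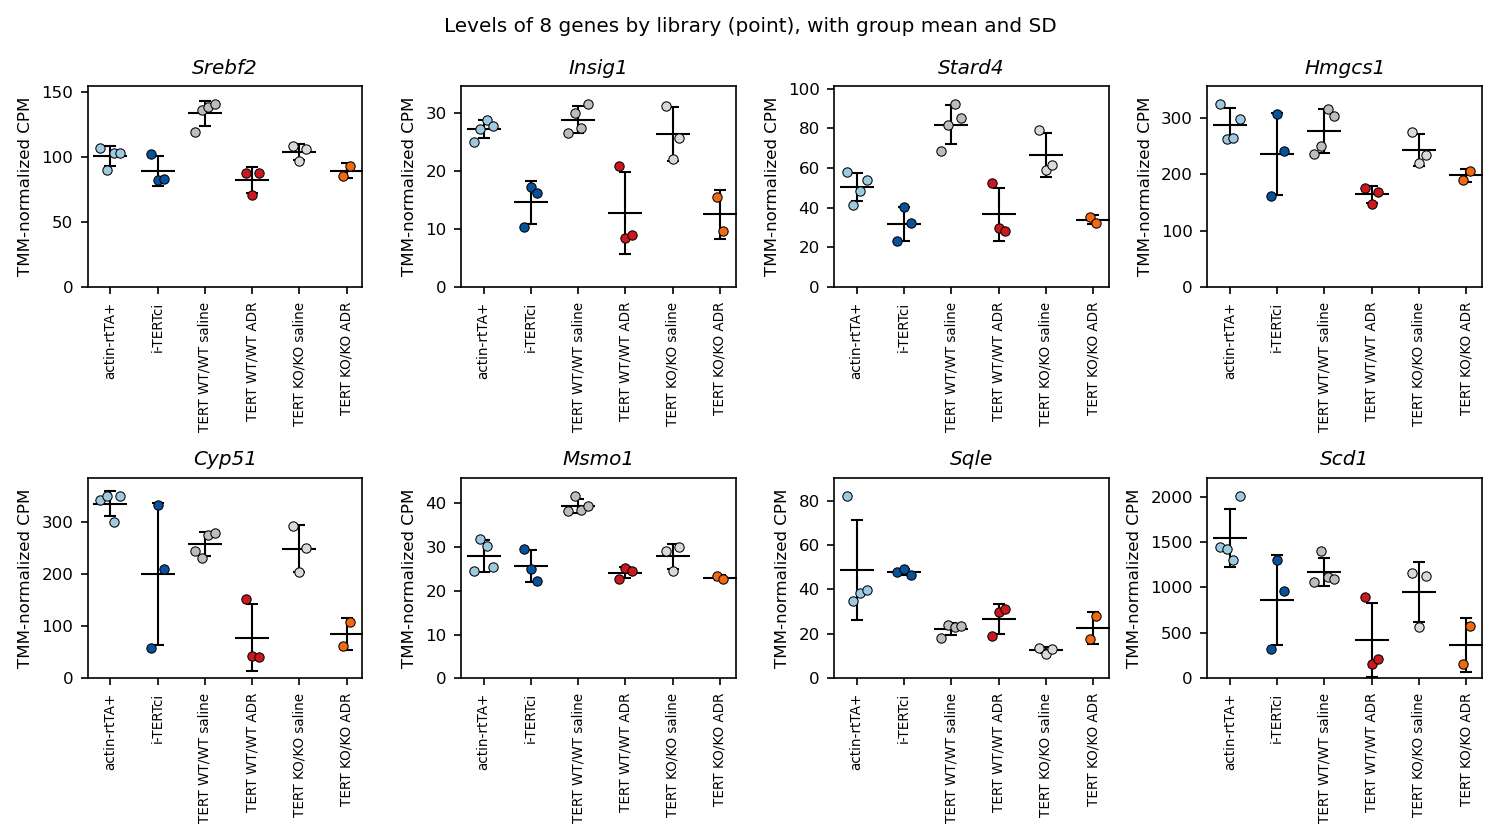
TMM-normalized CPM (y axis, from 0) of 8 genes in each library (points) of the 6 groups (x axis), with the mean and SD of each group, n = 4, 3, 4, 3, 3 and 2 in the order shown. Insig1, Stard4 and Cyp51 were lower in both ADR groups than in their saline groups, the 3 i-TERTci values of Cyp51 were spread from 58.8 to 332 CPM, and Sqle in TERT KO/KO saline kidneys was the lowest group.

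Few differences between genotypes passed a test. Among saline kidneys, edgeR called none of the 31 by genotype (0.00526% of all genes were called), with 1672 genes at an unadjusted p under 0.05 and a median of -0.23 over the 31. The lowest log2 fold changes were Idi1 at -1.02 ± 0.34 (SE, adjusted p = 0.564), Sqle at -0.80 ± 0.20 (SE, adjusted p = 0.564) and Hsd17b7 at -0.57 ± 0.20 (SE, adjusted p = 0.564). Of the 31, 8 had an unadjusted p under 0.05. DESeq2 called 1 of them lower, Msmo1 (0.0632% of its tested genes), and limma voom called 10 lower (6.41% of all genes). Sqle had 13.8, 11.2 and 13.2 CPM in TERT KO/KO saline kidneys and 18.1, 24.1, 23.0 and 23.7 CPM in TERT WT/WT saline kidneys, without overlap. The share of all tested genes without overlap here was not counted.

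After ADR, edgeR called none of the 31 between genotypes (0.0736% of all genes were called, and 1458 genes had an unadjusted p under 0.05), with a median of 0.01. Without TERT WT/WT ADR replicate 1, Cyp51 was called higher in TERT KO/KO mice at 1.03 ± 0.22 (SE, edgeR adjusted p = 0.0256), where 2.44% of all genes were called higher. When the ADR effect in one genotype was subtracted from that in the other, edgeR called none of the 31 and 0.0% of all genes, with 2288 genes at an unadjusted p under 0.05, and its median over the 31 was 0.21 (positive where the ADR effect was less negative in TERT KO/KO mice). DESeq2 called none of the 31 for this difference either. The smallest adjusted p was that of Hsd17b7, with 1.15 ± 0.31 (SE, adjusted p = 0.283), followed by Msmo1 with 0.43 ± 0.14 (SE, adjusted p = 0.338) and Srebf2 with 0.49 ± 0.17 (SE, adjusted p = 0.346). The 20 genes called in TERT WT/WT mice and the 1 called in TERT KO/KO mice were not shown to respond differently by genotype. Over the 31 genes the standard errors of this difference ran from 0.13 to 0.88.

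i-TERTci kidneys were compared with actin-rtTA+ kidneys 8 days after doxycycline was withdrawn. None of the 31 was called by edgeR, as was 0.00564% of all 17745 tested genes (1 gene), and 8 of the 31 had an unadjusted p under 0.05 where 3972 of all tested genes did. Their median log2 fold change was -0.29, with 28 of 31 negative, beside 0.02 over all tested genes. In 6 of them, Dhcr7, Elovl6, Insig1, Mvd, Sc5d and Stard4, all 3 i-TERTci kidneys were below all 4 controls, against 8.17% of all tested genes. The result turned on the tool and on i-TERTci replicate 2. DESeq2 called 4 lower, Dhcr7, Insig1, Mvd and Stard4 (2.43% of its tested genes), limma voom called 14 lower (14.4% of all genes), and edgeR without i-TERTci replicate 2 called 8 lower (8.43% of all genes).

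Insig1 had the smallest adjusted p of the 31 in this comparison. It had 25.1, 27.3, 28.9 and 27.7 CPM in actin-rtTA+ kidneys and 10.3, 17.2 and 16.2 CPM in i-TERTci kidneys, a log2 fold change of -0.90 ± 0.18 (SE, adjusted p = 0.0758). Stard4 had 58.1, 41.5, 48.6 and 53.8 CPM in controls and 23.1, 40.4 and 32.3 CPM in i-TERTci kidneys, with -0.66 ± 0.20 (SE, adjusted p = 0.115). Srebf2 had 107, 89.9, 103 and 103 CPM in controls and 102, 82.0 and 83.0 CPM in i-TERTci kidneys, with -0.18 ± 0.13 (SE, adjusted p = 0.446). Replicate 1 was within the control range for Srebf2 while it was the lowest kidney for Insig1 and Stard4.

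Srebf1 had 62.2, 57.9, 61.1 and 74.9 CPM in controls and 65.0, 53.9 and 53.3 CPM in i-TERTci kidneys, with -0.16 ± 0.13 (SE, adjusted p = 0.518). Scap had 119.8, 96.0, 111 and 112 CPM in controls and 89.1, 93.3 and 99.95 CPM in i-TERTci kidneys, with -0.22 ± 0.12 (SE, adjusted p = 0.315). Insig2 had 31.7, 24.3, 27.7 and 32.7 CPM in controls and 28.3, 25.5 and 25.9 CPM in i-TERTci kidneys, with -0.13 ± 0.13 (SE, adjusted p = 0.584). The groups overlapped for all 3 of these regulators.

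In the mevalonate pathway, Mvd had 44.6, 57.2, 51.1 and 52.8 CPM in actin-rtTA+ kidneys and 23.2, 42.2 and 33.5 CPM in i-TERTci kidneys, with -0.64 ± 0.20 (SE, adjusted p = 0.118). Mvk had 15.6, 24.7, 19.5 and 19.4 CPM in controls and 16.2, 14.2 and 14.3 CPM in i-TERTci kidneys, with -0.41 ± 0.17 (SE, adjusted p = 0.194). Acat2 had 75.8, 86.4, 75.1 and 70.2 CPM in controls and 30.0, 73.9 and 46.0 CPM in i-TERTci kidneys, with -0.62 ± 0.27 (SE, adjusted p = 0.219). For Acat2, replicate 2 matched the controls and replicate 1 lay far below their lowest value. Hmgcs1 had 324, 262, 264 and 299 CPM in controls and 162, 307 and 242 CPM in i-TERTci kidneys, with -0.28 ± 0.22 (SE, adjusted p = 0.493). Here too replicate 2 lay within the control range.

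Of the sterol genes, Dhcr7 had 38.3, 47.5, 39.5 and 37.5 CPM in actin-rtTA+ kidneys and 32.7, 20.2 and 29.8 CPM in i-TERTci kidneys, with -0.56 ± 0.18 (SE, adjusted p = 0.125). It was lowest in replicate 2. Ebp had 76.6, 111, 92.5 and 88.4 CPM in controls and 39.4, 82.4 and 54.4 CPM in i-TERTci kidneys, with -0.65 ± 0.25 (SE, adjusted p = 0.173). Sc5d had 36.1, 22.6, 22.6 and 23.8 CPM in controls and 19.9, 19.6 and 16.3 CPM in i-TERTci kidneys, with -0.50 ± 0.19 (SE, adjusted p = 0.178), and control replicate 1 was well above the other controls. Fdft1 had 31.6, 44.0, 38.2 and 36.8 CPM in controls and 32.3, 29.7 and 31.5 CPM in i-TERTci kidneys, with -0.27 ± 0.13 (SE, adjusted p = 0.255). Cyp51 had 342, 350.5, 299 and 350.3 CPM in controls and 58.8, 332 and 209 CPM in i-TERTci kidneys, so that replicate 2 was like the controls and replicate 1 was far below them, a log2 fold change of -0.75 ± 0.47 (SE, adjusted p = 0.379).

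Of the fatty acid genes, Elovl6 had 118, 112, 115 and 106 CPM in actin-rtTA+ kidneys and 38.5, 103 and 75.5 CPM in i-TERTci kidneys, with -0.64 ± 0.28 (SE, adjusted p = 0.227). Scd1 had 1443, 1419, 1299.8 and 2009 CPM in controls and 326, 1303 and 966 CPM in i-TERTci kidneys, with -0.83 ± 0.43 (SE, adjusted p = 0.292). Both had their lowest value in replicate 1. Scd2 had 88.8, 62.2, 69.2 and 73.1 CPM in controls and 94.3, 71.3 and 81.4 CPM in i-TERTci kidneys, with 0.17 ± 0.16 (SE, adjusted p = 0.56). Acly had 173, 91.8, 112 and 126 CPM in controls and 109, 116 and 132 CPM in i-TERTci kidneys, with -0.08 ± 0.21 (SE, adjusted p = 0.851). Fasn and Acaca had log2 fold changes of 0.04 and -0.05, and neither passed. Over all 31 genes the i-TERTci log2 fold changes ran from -0.90 (Insig1) to 0.17 (Scd2).

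Set side by side, the i-TERTci log2 fold change was -0.90 for Insig1, -0.66 for Stard4 and -0.64 for Mvd, and the ADR log2 fold change in TERT WT/WT mice was -1.18, -1.15 and -0.96. For Fasn, Acly and Srebf1 the i-TERTci values were 0.04, -0.08 and -0.16, beside ADR values of -0.51, -0.70 and -0.72. The test of the difference, on 19 libraries, called none of the 31 and 0.00505% of all genes, with 1417 genes at an unadjusted p under 0.05, 5 of them among the 31. DESeq2 called none of the 31 and limma voom called 15 as higher, beside 6.15% of all genes. The median over the 31 was 0.29 (positive where the i-TERTci effect was less negative), and the smallest adjusted p was that of Msmo1 with 0.56 ± 0.16 (SE, adjusted p = 0.434). Strain background, doxycycline and the days since the insult differ between the 2 experiments and cannot be told apart from the kind of insult.

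Genes next to these pathways were taken from 3 lists. In TERT WT/WT mice given ADR, 10 of 24 other lipid synthesis genes fell and 1 rose, beside 12.0% of all tested genes that fell and 15.2% that rose. The median log2 fold change of the list was -0.39. Acss2, which activates acetate, had -1.09 ± 0.22 (SE, adjusted p = 0.00507), Me1, a source of NADPH for synthesis, had -0.93 ± 0.19 (SE, adjusted p = 0.00562), and the desaturases Fads1 and Fads2 had -0.61 and -1.10. The gene that rose was Agpat2, an acyltransferase of glycerolipid synthesis, with 0.42 ± 0.11 (SE, adjusted p = 0.0158). None of the 24 was called in TERT KO/KO mice, where 1.43% of all tested genes fell and 3.83% rose, or in i-TERTci mice, where 0.00564% were called. In i-TERTci mice the smallest p values were those of Acacb, Fdx1, Dgat2 and Acss2, with log2 fold changes of -0.53, -0.61, -0.75 and -0.62.

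Of 12 genes of LXR, the nuclear receptor that senses excess sterol, and of sterol export and storage, 3 rose and 4 fell with ADR on the TERT WT/WT genotype. Of all tested genes 15.2% rose and 12.0% fell there. Abca1, the pump that hands cholesterol to apolipoproteins and a well known LXR target, had 27.8, 32.7, 38.9 and 37.3 CPM after saline and 47.9, 81.5 and 109.7 CPM after ADR. It rose with a log2 fold change of 1.22 ± 0.22 (SE, adjusted p = 0.00315), and in TERT KO/KO mice it rose with 1.14 ± 0.26 (SE, adjusted p = 0.0284). In i-TERTci mice Abca1 had 1.20 ± 0.37 (SE, adjusted p = 0.121) and Abcg1, a related pump, had 0.76 ± 0.20 (SE, adjusted p = 0.0887), and neither passed. Soat1, which esterifies cholesterol, and Npc1, which exports it from lysosomes, had 0.63 and 0.39 there. In TERT WT/WT mice Nceh1, Nr1h3 and Lipa, a cholesterol ester hydrolase, an LXR gene and the lysosomal lipase, fell with -1.03, -0.43 and -0.79. In TERT KO/KO mice 2 of the 12 rose (Abca1 and Mylip) and 2 fell (Nr1h3 and Lipa), beside 3.83% of all tested genes that rose and 1.43% that fell.

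Of 10 genes of the fasting and PPAR-alpha response, 9 were tested in each experiment. With ADR 3 rose and 2 fell in TERT WT/WT mice, beside 15.2% of all tested genes that rose and 12.0% that fell. Angptl4, a lipase inhibitor, had 3.89 ± 0.56 (SE, adjusted p = 0.00156), Plin2, a coat protein of lipid droplets, had 2.35 ± 0.44 (SE, adjusted p = 0.00425), and Pdk4, a brake on glucose oxidation, had 2.88 ± 0.55 (SE, adjusted p = 0.00464). The 2 that fell were Cyp4a14, a fatty acid hydroxylase, with -0.78 and Ppara itself with -0.85. In TERT KO/KO mice Angptl4 rose with 3.12 ± 0.64 (SE, adjusted p = 0.0209). In i-TERTci mice Pdk4, Angptl4 and Ppara had 0.61, 0.65 and -0.68, and none of the list was called.

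Markers of proximal tubule cells moved in the same kidneys, and so did the podocyte gene Nphs1. Relative to the mean of the own controls on the log2 scale, the median of the 31 genes was -0.28, -0.82 and -0.69 in TERT WT/WT ADR replicates 1, 2 and 3. In the same 3 kidneys Slc34a1, the phosphate transporter of the proximal tubule, was at -0.27, -2.55 and -2.83, and Lrp2, the protein uptake receptor megalin, was at -0.70, -2.37 and -2.32. Both were mildest in replicate 1, as the 31 genes were. In i-TERTci replicates 1, 2 and 3 the median of the 31 was -0.31, -0.15 and -0.28, beside -2.46, -0.12 and -0.77 for Slc34a1. In TERT KO/KO ADR replicates 1 and 3 the median of the 31 was -0.26 and -0.29, beside -0.79 and -1.71 for Slc34a1. Nphs1 was at -0.10, -3.08 and -3.48 in TERT WT/WT ADR replicates 1, 2 and 3. It was at -0.32 and -1.11 in TERT KO/KO ADR replicates 1 and 3. In i-TERTci replicates 1, 2 and 3 Nphs1 was at -2.44, 0.98 and -0.37. Of the thick ascending limb, Umod was at -0.16, 0.30 and 0.51 in TERT WT/WT ADR replicates 1, 2 and 3, and Slc12a1 was at -0.52, -0.60 and -0.08. In TERT KO/KO ADR replicates 1 and 3, Umod was at 0.21 and 1.14 and Slc12a1 at 0.27 and 0.87. In i-TERTci replicates 1, 2 and 3, Umod was at 0.64, -0.43 and 0.36 and Slc12a1 at -0.12, -0.43 and -0.41.

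**Figure D4:**
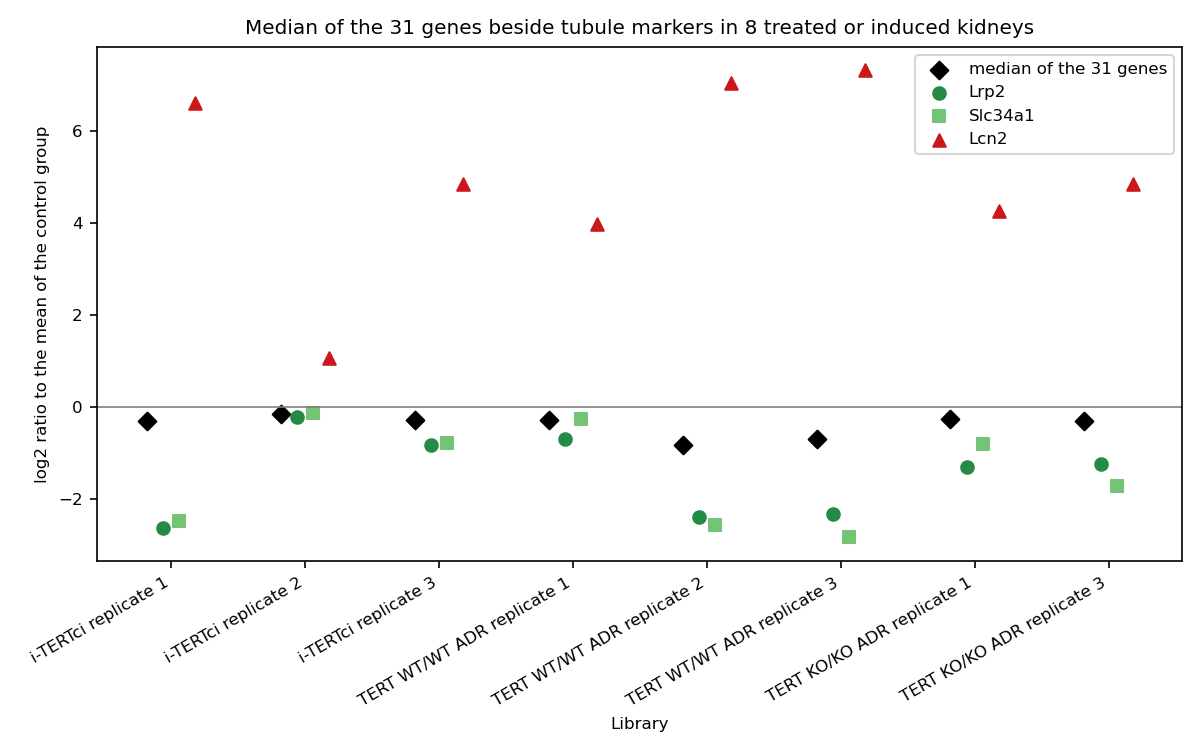
Log2 ratio to the mean of the own control group (y axis) in the 8 treated or induced kidneys (x axis) for the median of the 31 genes (black), the proximal tubule genes Lrp2 and Slc34a1 (green) and the injury marker Lcn2 (red). The values of Lrp2, Slc34a1 and the median of the 31 were all nearest to 0 in i-TERTci replicate 2, where Lcn2 was also lowest.

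Other marker lists moved with the groups as well. The summed level of 9 tubule and podocyte markers was 12194 to 15529 CPM in TERT WT/WT saline, 6997 to 11509 in TERT WT/WT ADR, 11076 to 12737 in TERT KO/KO saline, 8511 to 9565 in TERT KO/KO ADR, 12949.9 to 16377 in actin-rtTA+ and 7745 to 12569.7 CPM in i-TERTci kidneys, and Lrp2 and Slc12a3 were among those that fell with ADR on the TERT WT/WT genotype. For 7 markers of injured proximal tubule it was 1336 to 1502 CPM in TERT WT/WT saline and 3891 to 20403 CPM in TERT WT/WT ADR kidneys, 1292 to 1579.8 and 6604 to 12252 CPM in the TERT KO/KO groups, and 1331 to 1593 and 1463 to 14812 CPM in actin-rtTA+ and i-TERTci kidneys. With ADR all 7 rose in TERT WT/WT and 4 of the 7 in TERT KO/KO mice, beside 15.2% and 3.83% of all tested genes that rose. Of 8 macrophage markers 7 rose, of 8 fibroblast markers 6 rose and 1 fell, and all 8 proliferation markers rose with ADR on the TERT WT/WT genotype. There 15.2% of all tested genes rose and 12.0% fell. In i-TERTci kidneys edgeR called none of these macrophage, fibroblast, proliferation and injury genes. Of them, 7 of the 8 genes in each of these 3 lists and all 7 injury genes had an unadjusted p under 0.05, as did 3972 of all 17745 tested genes. The macrophage sum was 142 to 183 CPM after saline and 267 to 563 CPM after ADR in TERT WT/WT mice, the fibroblast sum 272 to 298 and 553 to 1184 CPM, and the proliferation sum 48.3 to 53.6 and 87.7 to 167 CPM. The part of these cell populations in the lower levels of the 31 genes was not tested.

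Tissues with high lipid synthesis that can adhere to a kidney were measured too. Of 6 adrenal cortex markers, Cyp11b1 and Cyp11b2 had no count in any of the 19 libraries, and the list summed to 1.05 to 2.01 CPM. The 8 adipocyte markers summed to 1.38 to 11.1 CPM in TERT WT/WT saline, 1.65 to 3.59 in TERT WT/WT ADR, 1.53 to 5.74 in TERT KO/KO saline, 2.00 to 10.0 in TERT KO/KO ADR, 11.9 to 33.0 in actin-rtTA+ and 21.2 to 33.5 CPM in i-TERTci kidneys. None of the adipocyte markers was called in any of the 3 comparisons of treated or induced with control kidneys. The 8 hepatocyte markers summed to 23.0 to 30.0 CPM in TERT WT/WT saline and 17.8 to 22.9 CPM in TERT WT/WT ADR kidneys. While this sum did not increase, 2 of its low members, Apoh and Fgb, rose there. In the other groups it was 25.4 to 115 CPM in TERT KO/KO saline, 18.5 to 19.8 in TERT KO/KO ADR, 16.7 to 26.0 in actin-rtTA+ and 23.2 to 46.8 CPM in i-TERTci kidneys.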

How the data were processed

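The deposited table holds raw read counts per gene for 20 whole-kidney libraries. The authors trimmed reads with Trimmomatic, checked them with FastQC and aligned them with STAR to mm10. The counting tool, its strand setting and the annotation are not given in the sources used here. Gene IDs were matched to GENCODE M21, and 327 of 55471 had no match. Groups came from the labels, and whether replicates share a litter or cage is not known, so the tests treat the mice as independent. The spread of each gene was estimated over all groups of a fit and drawn toward that of other genes.

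Genes were filtered with filterByExpr, scaled by TMM and tested with edgeR 4.0.16 (quasi-likelihood F test, robust, R 4.3.3), with 7 libraries in the i-TERTci experiment, 12 in the ADR experiment and 19 for the comparison across both. Benjamini-Hochberg adjustment took in every gene tested, with a threshold of 0.05. CPM are TMM-scaled counts per library, and a prior of 0.1 CPM was added before log2 ratios of single libraries. Levels between genes are CPM per kilobase of merged exon. No 2 libraries of the same group agreed within sampling noise, and libraries of different groups were not compared in this way.

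The 31 genes, the marker and pathway lists and the tests were chosen with earlier results of these data known. The genes given in full were those with the smallest p, 4 from each role or list in ADR against saline in TERT WT/WT and in i-TERTci against actin-rtTA+, together with Srebf1, Srebf2, Insig1 and Insig2. Sqle, Cyp51 and the genes named in counts were singled out after their values were seen. Some genes that this rule selects are not reported here. Alternatives were DESeq2 1.42.0 (also its median-ratio factors in edgeR), limma 3.58.1 voom with sample quality weights, no filter, a mean of at least 1 CPM, a replicate block, the compared groups alone, the set-aside library put back, and each library left out.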

Additional observations from a re-analysis of the deposited data

Results flagged for a closer look

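In groups of 4 libraries, a gene was noted where its highest or lowest library lay far from the other 3 by Dixon's criterion. This happened in 5 of the 62 groups of 4 examined, where chance gives about 1 in 20. Among actin-rtTA+ kidneys, Sqle in replicate 1 had 82.1 CPM and Sc5d in replicate 1 had 36.1 CPM, both above the other controls. Idi1 in actin-rtTA+ replicate 2 had 1.99 CPM and Cyp51 in actin-rtTA+ replicate 3 had 299 CPM, both below them. Scd1 in TERT WT/WT saline replicate 2 had 1398 CPM, above the other saline kidneys.

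In the set-aside library with hepatocyte markers, 26 of the 31 genes lay above all 12 other libraries of the ADR experiment, 3 lay within their range and 2, Mvd and Scd2, lay below it, with all 13 libraries scaled together. Of all 19023 genes tested in that experiment, 28.5% lay above and 36.9% below all 12. Sc5d had 446 CPM there, 19.8-fold over the highest other library. Acaca was 13.5-fold and Fasn 7.95-fold over the highest other library.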

How the results depend on the processing

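For i-TERTci against actin-rtTA+, none of the 31 genes was called by edgeR, 4 by DESeq2, 14 by limma voom and 0 to 8 with 1 library left out, 8 being the value without i-TERTci replicate 2. For ADR in TERT WT/WT mice, 20 were called by edgeR, 1 with the set-aside library, 4 by DESeq2 with it (an alternative chosen after seeing the data) and 7 to 25 with 1 library left out, 25 being the value without TERT WT/WT ADR replicate 1, where calls over all genes also increased, and 7 that without replicate 2. The 4 were all lower, and DESeq2 with the set-aside library called 809 of all 17967 tested genes lower and 1645 higher. For ADR in TERT KO/KO mice, 1 was called by edgeR, 3 with no filter, 7 by DESeq2, 7 by limma voom, 8 with the compared groups alone, 0 with the set-aside library, 2 by DESeq2 with it and 0 to 11 with 1 library left out. Over all genes, no filter gave 312 lower and 763 higher of 33162, and limma voom 537 and 1023 of 19023. The compared groups alone gave 688 lower and 1022 higher of 17951. DESeq2 with the set-aside library gave 610 lower and 1343 higher of 17967. Without TERT WT/WT ADR replicate 3, 527 were lower and 975 higher of 18774. The 11 came without TERT WT/WT ADR replicate 1, the 1 called without TERT KO/KO ADR replicate 1 was Sqle, 4 were called without TERT WT/WT ADR replicate 3, and 0 without TERT KO/KO ADR replicate 3, any TERT KO/KO saline library or TERT WT/WT saline replicate 2, 3 or 4. With the set-aside library, the log2 fold change of Stard4 in these mice reversed to 0.24. Between genotypes in saline, DESeq2 called 1 and limma voom 10, and after ADR 0 to 1 were called with 1 library left out, Cyp51 without TERT WT/WT ADR replicate 1. For the i-TERTci effect minus the ADR effect, limma voom called 15. The cause of these changes was not tested. Median-ratio factors moved no count by over 1.5 times.

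Replicate numbers were not used to pair libraries in the main fits. The correlations of same-numbered deviations ran from -0.34 to 0.36, and not every library correlated best with its own number. Groups this small cannot settle whether the numbers mark pairs. With a replicate block, 4 of the 31 were called for ADR in TERT KO/KO mice in place of 1, 20 for ADR in TERT WT/WT mice and 0 for i-TERTci. The 4 were 3 lower and 1 higher (Sqle), beside 179 of all 19023 genes called lower and 556 higher. In TERT WT/WT mice all 20 were lower, beside 1606 of all genes called lower and 2006 higher. For i-TERTci, 1 of all 17745 genes was called. Fdps had a median of 23 counts, the lowest of the 31, and whether depth limited any call was not tested.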
